A study of Mus musculus with 8 samples.

Results

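mmu-miR-183-5p, mmu-miR-96-5p and mmu-miR-182-5p (written without the species prefix from here on) are the guide strands of a single polycistronic miRNA cluster, named after its members Mir183, Mir96 and Mir182. These 3 rows were taken by name from the 1978 mouse mature miRNAs of the count table, and their level was followed in 3A cells and in the extracellular vesicles (EVs) that these cells released, with or without silencing of the RNA-binding protein PCBP2. 3A cells are mouse hepatocytes that do not form tumors, and EVs were purified by ultracentrifugation from medium conditioned for 72 h with EV-depleted serum. The 8 small RNA libraries formed 4 conditions with 2 biological replicates each. Cell shCTR and EV shCTR came from cells carrying a scrambled shRNA, and cell shPCBP2 and EV shPCBP2 from cells carrying an shRNA against PCBP2. The shPCBP2 line was made for the study by retroviral infection and puromycin selection, with a single shRNA sequence against PCBP2. The shCTR line had been generated earlier, according to the paper. PCBP2 mRNA is not measured by small RNA libraries, so the silencing itself was not analysed here.

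The cluster is transcribed as a single primary RNA from which the hairpins are cut, so that its members share their transcription but are processed, loaded into Argonaute and degraded one by one. It is best known from sensory organs, where it is needed by photoreceptors and hair cells, and from epithelial tumors, where it is often high. In liver, its host transcript is a target of SREBP2, the transcription factor of sterol synthesis. Among the mRNAs repressed by these miRNAs are FOXO factors of insulin signaling.

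The mature sequences are shown because the members resemble each other and reads could in principle be assigned to the wrong member. They were taken from RefSeq (GRCm38.p6), 5′ to 3′, with the seed (bases 2 to 8) in capitals.

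miR-183-5p: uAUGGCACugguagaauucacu
miR-96-5p: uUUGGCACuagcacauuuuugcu
miR-182-5p: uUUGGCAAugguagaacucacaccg

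No seed was shared by all members. Counting bases from 1 at the 5′ end, the seeds of miR-183-5p and miR-96-5p differed by A2U, those of miR-96-5p and miR-182-5p by C8A, and those of miR-183-5p and miR-182-5p by both. Over their whole length, miR-183-5p and miR-182-5p were the most alike, with the same base at 18 of 22 positions and a shared run UGGUAGAA from base 9. miR-183-5p and miR-96-5p had the same base at 13 of 22 positions, and miR-96-5p and miR-182-5p at 12 of 23. No pair is thus near-identical. Of the other miRNAs in the table with a RefSeq sequence, only miR-1271-5p had the seed of a member, that of miR-96-5p, and it had 0 reads in every library.

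The study concerns the CELL motif, whose core is AUUA or AUUG. Neither form occurs in the 3 guides. The extended CELL motif, which the paper also scanned, and the degenerate hEXO motif were not searched here. On the given strand, AUUA or AUUG was found in 149 of 1679 mature miRNAs of the table with a RefSeq sequence (8.87%) and in 25 of 156 tested ones (16.0%). These letters describe the sequences only.

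The hairpins lie on the minus strand of chromosome 6 of GRCm38. Mir183 comes first in the direction of transcription, from 30169668 to 30169737. Mir96, from 30169446 to 30169551, follows after 116 bases, and Mir182, from 30165918 to 30165992, after a further 3453 bases. RefSeq places all of them within the span of the non-coding host gene Mirc35hg (30158640 to 30174125). GENCODE M21 lists no gene other than the miRNAs themselves between the ends of the cluster.

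Between 26391248 and 38166798 reads were counted per library, and mouse miRNAs made up 33.1% to 42.6% of them in cells but only 1.62% to 2.42% in EVs, the rest being the nematode spike-in cel-miR-39. Levels are given as reads per 1000000 spike-in reads (spike-in RPM). A count of 0 allows up to 3 counts, and this floor, like the intervals below, covers counting error only, since no use of molecular identifiers is described for these reads. Low counts were scarce in EVs, where 20 of 634 counts above 0 of the tested miRNAs (3.15%) were between 1 and 40, against 53 of 707 in cells (7.50%). Single reads do occur in both EV conditions, but the sources used here do not say whether counts were removed at any step, and the floors and bounds below hold only if each 0 is a true count. Cell shPCBP2 replicate 1 stood apart from the other cell libraries by its share of mouse reads (33.1% against 41.5% to 42.6%). The hepatocyte miRNAs miR-122-5p, miR-192-5p and miR-194-5p were all read in the cells, although miR-122-5p, the most characteristic of them, had only 356 to 485 counts per cell library, against 795 to 2327 per EV library.

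All members were read in every cell library, in the order miR-96-5p, miR-182-5p, miR-183-5p. miR-96-5p, whose seed is mutated in inherited hearing loss, had 31855 and 24620 counts in cell shCTR and 16090 and 22853 in cell shPCBP2, and ranked from 49 to 53 among all mature miRNAs of a cell library. miR-182-5p, known as a repressor of FOXO1 and FOXO3, had 9739 and 8241 counts in cell shCTR and 5284 and 7809 in cell shPCBP2 (ranks 79 to 85). miR-183-5p had 4029 and 4145 counts in cell shCTR and 2700 and 3816 in cell shPCBP2 (ranks 101 to 105). The levels did not overlap between members in any condition of the cells. The length of a mature miRNA does not set its number of reads, but ligation efficiency differs between sequences, so the order is one of reads.

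In EVs, miR-96-5p was the only member read in every library. Its counts were 188 and 443 for EV shCTR, with 477 and 298 for EV shPCBP2. miR-182-5p had 280 and 331 counts in EV shCTR, but 315 and 0 counts in EV shPCBP2. For miR-183-5p, EV shCTR gave 0 and 100 counts and EV shPCBP2 0 and 90. Both conditions thus contained a replicate without miR-183-5p, and EV shPCBP2 replicate 2, which lacked miR-182-5p, was one of the libraries with miR-183-5p. The order of miR-96-5p and miR-182-5p in EVs was not fixed, since miR-182-5p was the higher in EV shCTR replicate 1 and miR-96-5p in the other libraries.

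**Figure D1:**
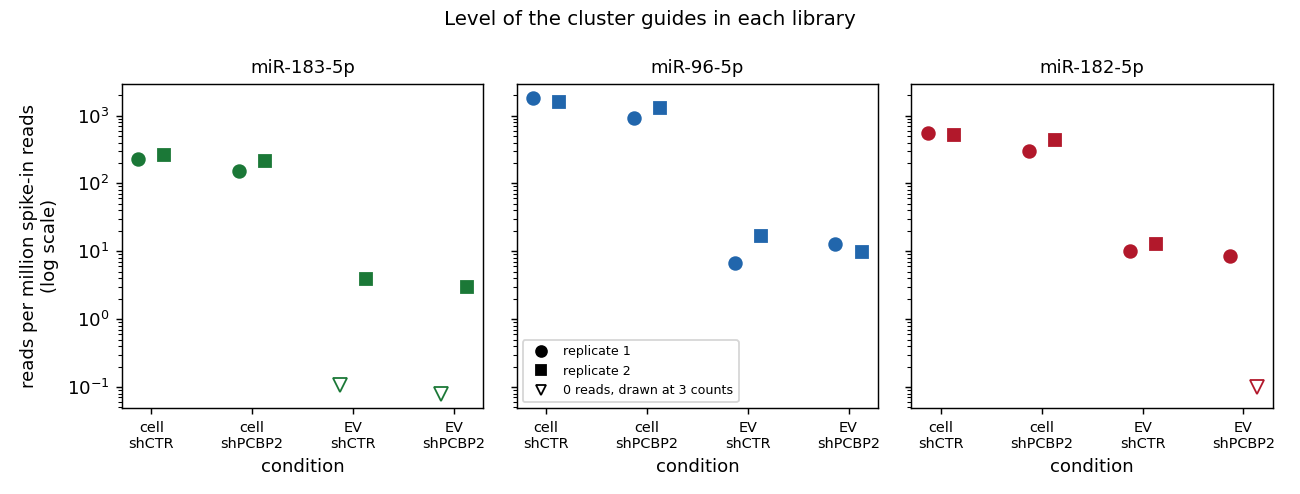
Level of each cluster guide in each library (y axis, spike-in RPM, log scale) by condition (x axis), with circles for replicate 1, squares for replicate 2 and open triangles for libraries with 0 reads, drawn at 3 counts. Cell values of miR-96-5p lie between 912 and 1787 and its EV values between 6.77 and 17.0, while miR-183-5p is at 0 in 2 and miR-182-5p in 1 of the 4 EV libraries.

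The gap between replicates was larger than counting error, since 100 and 90 reads of miR-183-5p stood against a zero that allows at most 3. Such gaps were also found outside the cluster. Among the 180 miRNAs tested (a read in 2 or more libraries of cells and in 2 or more of EVs), 30 had 0 counts in an EV shCTR replicate and 50 or more in the other, and 33 did so in EV shPCBP2, against 0 in either condition of the cells. The EV pattern of miR-183-5p, with reads in replicate 2 of both conditions only, was that of 7 tested miRNAs, and the pattern of miR-182-5p that of 9. For both members, the EV shPCBP2 replicates differed by more than the means of the 2 conditions.

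Comparing EVs with cells, each member had an EV level, relative to its cell level, below the median of the tested miRNAs, and miR-96-5p fell in both conditions. In shCTR, miR-96-5p had 1787 and 1565 spike-in RPM in cells and 6.77 and 17.0 in EVs, 141-fold lower in EVs (log2 change -7.14, standard error 0.61, adjusted p = 6.80e-05, quasi-likelihood test of edgeR, Benjamini-Hochberg over all tested miRNAs). In shPCBP2, the levels were 912 and 1283 in cells and 12.7 and 9.80 in EVs, 97.5-fold lower (log2 change -6.61, standard error 0.60, adjusted p = 8.58e-05, same test). EV and cell values did not overlap. The change of miR-96-5p was also negative when the total mouse miRNA count, TMM factors or median-of-ratios size factors replaced the spike-in, with log2 changes from -2.35 to -2.10 in shCTR and from -2.05 to -1.42 in shPCBP2. The adjusted p was under 0.05 in all of these except with the total miRNA count in shPCBP2 (0.0639).

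miR-182-5p had 546 and 524 spike-in RPM in cell shCTR against 10.1 and 12.7 in EV shCTR, and 299 and 438 in cell shPCBP2 against 8.39 and 0 in EV shPCBP2. The log2 EV/cell change was -5.55 in shCTR (standard error 2.26, adjusted p = 0.0704, edgeR's quasi-likelihood test) and -6.46 in shPCBP2 (standard error 2.36, adjusted p = 0.0489, same test). Only the shPCBP2 value passed the threshold, and it did not with the total mouse miRNA count, median-of-ratios size factors or TMM factors (log2 change from -1.98 to -1.26, adjusted p from 0.488 to 0.698, same test). With the same scalings the shCTR change was -0.78 to -0.55 (adjusted p from 0.789 to 0.889, same test). In shCTR the EV replicates differed by 1.26-fold. With only the 4 shCTR libraries in the fit, the change was -5.55 with a standard error of 0.36 (adjusted p = 0.000833, same test), and without EV shPCBP2 replicate 1 or replicate 2 the adjusted p was 0.000117 and 0.000116. With only the 4 shPCBP2 libraries the adjusted p was 0.0771, and the shPCBP2 call was also lost without either replicate of cell shCTR, cell shPCBP2 or EV shCTR (adjusted p of 0.0531 or more).

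miR-183-5p had 226 and 263 spike-in RPM in cell shCTR against 0 and 3.84 in EV shCTR, and 153 and 214 in cell shPCBP2 against 0 and 2.96 in EV shPCBP2. Its log2 EV/cell change was -6.99 in shCTR (standard error 3.19, adjusted p = 0.0944, edgeR's quasi-likelihood test) and -6.95 in shPCBP2 (standard error 3.19, adjusted p = 0.0962, same test). All EV values lay below all cell values, but neither change passed the threshold. The change passed it in shCTR without EV shCTR replicate 2 (-15.49), EV shPCBP2 replicate 1 (-6.99) or EV shPCBP2 replicate 2 (-6.99). In shPCBP2 it passed without EV shCTR replicate 1 (-6.95), EV shCTR replicate 2 (-6.95) or EV shPCBP2 replicate 2 (-15.04). The values of -15.49 and -15.04 rest on a zero, since only the library with 0 reads is then left in the EV condition compared. With those 3 other scalings, the change was -2.17 to -1.89 in shCTR and -2.30 to -1.77 in shPCBP2 (adjusted p from 0.571 to 0.698, same test).

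At an adjusted p under 0.05, 1 of 3 members was thus lower in EVs in shCTR and 2 of 3 in shPCBP2, where 59.4% and 60% of all tested miRNAs were lower. DESeq2 and limma voom called all 3 lower in both conditions, where they called 72.8% and 76.7% of all tested miRNAs lower in shCTR and 70% and 73.3% in shPCBP2. A lower EV level relative to the spike-in was the rule, with a median log2 change of -4.93 over all tested miRNAs in shCTR and -4.90 in shPCBP2. Counted from the lowest EV/cell change of 180, miR-96-5p ranked 17, miR-183-5p 21 and miR-182-5p 61 in shCTR. Their ranks in shPCBP2 were 31, 19 and 38. How many cells stand behind each EV sample is not given in the sources used here. The size of the ratio thus depends on inputs that are unknown here. The position among miRNAs does not depend on these inputs, but it does depend on the filter, which requires EV reads. Without the filter, over 800 miRNAs, the shCTR median was -5.77, with miR-182-5p (-5.55) above it and the other members below. The shPCBP2 median was then -5.62, above all members. The position also moved with the library left out. In shPCBP2, miR-182-5p stood at -0.62 from the median without EV shPCBP2 replicate 2 and at -10.9 without replicate 1.

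Taking each EV library as a percent of the mean cell level of the same shRNA, miR-96-5p stood at 0.404% and 1.02% in EV shCTR, while it stood at 1.16% and 0.893% in EV shPCBP2. miR-182-5p stood at 1.88% and 2.38% in EV shCTR and at 2.27% in EV shPCBP2 replicate 1. miR-183-5p stood at 1.57% in EV shCTR replicate 2 and at 1.61% in EV shPCBP2 replicate 2. In the libraries without reads, the floor was 0.0441% and 0.0435% for miR-183-5p and 0.0267% for miR-182-5p. Over all tested miRNAs the median of the same percent was 2.69% to 3.64% per library, so that every value of the members was below the median of its library. In each of the 3 EV libraries with both miRNAs, miR-182-5p kept a larger share of its cell level than miR-96-5p.

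The members were also set beside miRNAs with a mean cell level within 2-fold of theirs. For miR-96-5p there were 29 such miRNAs, all of them tested, with a median EV level of 2.05% of the cell level against 0.835% for miR-96-5p, and 24 of the 29 stood above it. For miR-182-5p there were 35, with a median of 2.16% against 1.73%, and 23 stood above. For miR-183-5p there were 41, of which 34 were tested and 2 had no EV read, with a median of 2.31% against 0.794%, and 33 stood above. These are descriptions of means over all 4 EV libraries, zeros included.

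**Figure D2:**
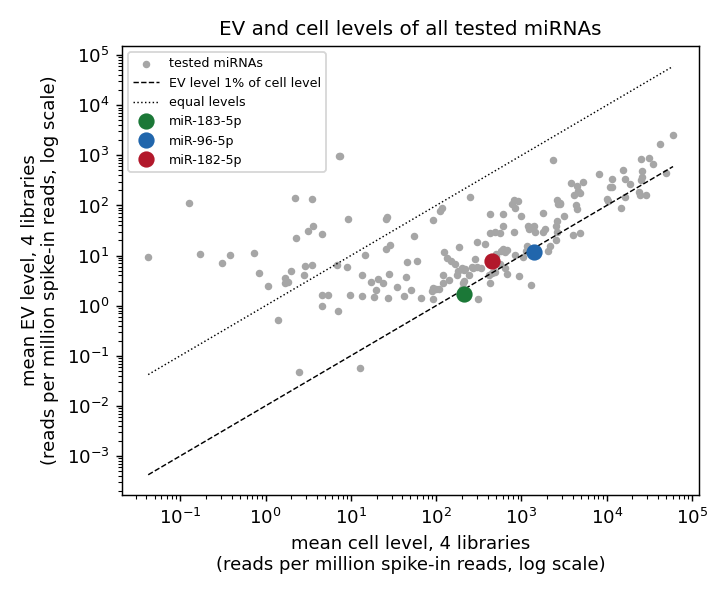
Mean level over the 4 EV libraries (y axis) against the mean level over the 4 cell libraries (x axis) of the 180 tested miRNAs (gray points), both in spike-in RPM on log scales, with the cluster guides in color. The dotted line marks equal levels and the dashed line an EV level of 1% of the cell level, near which miR-96-5p (0.835%), miR-183-5p (0.794%) and miR-182-5p (1.73%) lie in the lower part of the cloud.

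EV libraries also held miRNAs of blood cells that the cells lacked or nearly lacked. Of the 8 blood miRNAs listed (miR-451a, miR-486a-5p, miR-486b-5p, miR-144-3p, miR-142a-3p, miR-142a-5p, miR-150-5p and miR-223-3p), all were read in both EV conditions, with a summed level of 2135 to 2806 spike-in RPM per EV library against 8.56 to 27.7 per cell library. miR-451a, miR-144-3p, miR-142a-3p and miR-142a-5p were at 0 in all cell libraries. The part of such RNA in the EV reads of the cluster was not tested.

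The ratio of 2 members within a library does not depend on any scaling. In cells the composition of the cluster hardly moved. miR-96-5p made up 69.8% and 66.5% of the guide reads of the cluster in cell shCTR, and 66.8% and 66.3% in cell shPCBP2. miR-182-5p made up 21.3% to 22.6% and miR-183-5p 8.83% to 11.2%. The widest of the exact binomial 95% intervals for miR-96-5p, that of cell shPCBP2 replicate 1, ran from 66.2% to 67.4%. Cell shCTR replicate 1 stood apart, with a larger share of miR-96-5p and a smaller one of miR-183-5p than the other 3 cell libraries, so that the conditions did not separate beyond their replicates.

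In EVs the composition differed from that of cells and between libraries. miR-96-5p made up 40.2% of the reads (interval 35.7% to 44.8%, exact binomial) in EV shCTR replicate 1, 50.7% (47.3% to 54.1%) in EV shCTR replicate 2, 60.2% (56.7% to 63.7%) in EV shPCBP2 replicate 1 and 76.8% (72.3% to 80.9%) in EV shPCBP2 replicate 2. None of these intervals overlaps those of the cells, and those of the replicates of a condition do not overlap each other either. The share of miR-96-5p was higher in both EV shPCBP2 replicates than in both EV shCTR replicates, a difference that was not tested and that includes the replicate without miR-182-5p. The ratio of miR-96-5p to miR-182-5p reads was 2.93 to 3.27 in the cell libraries, but 0.671, 1.34 and 1.51 in the EV libraries that held both. In EV shPCBP2 replicate 2, with no miR-182-5p, it was at least 99.3, taking 3 counts for the zero, so that EVs as a whole fell on both sides of the cells. miR-96-5p over miR-183-5p was 5.94 to 7.91 in cells, and 4.43 and 3.31 in the EV libraries with both.

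**Figure D3:**
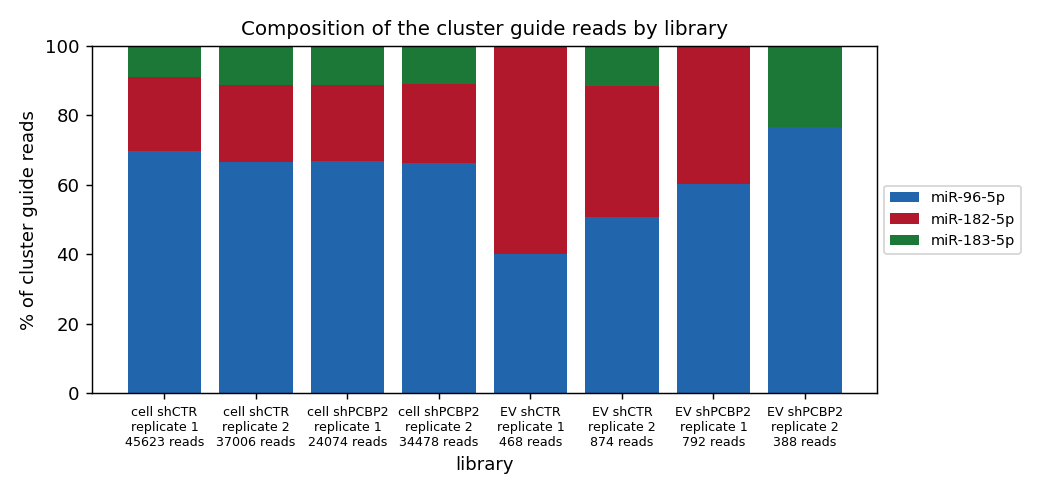
Percent of the cluster's guide reads (y axis) that belong to miR-96-5p, miR-182-5p and miR-183-5p in each library (x axis, with the number of cluster reads). The 4 cell libraries have nearly the same composition, with 66.3% to 69.8% for miR-96-5p, while the EV libraries range from 40.2% to 76.8% on 388 to 874 reads.

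The question of the study, whether silencing of PCBP2 moves miRNAs between cells and EVs, is addressed for each miRNA by the change of its EV/cell ratio between shPCBP2 and shCTR. For the cluster no such change was detected. The log2 change of the ratio was 0.53 for miR-96-5p (standard error 0.66, 95% interval -1.08 to 2.14, adjusted p = 0.992, edgeR's quasi-likelihood test). It was 0.04 for miR-183-5p (standard error 3.60, interval -8.74 to 8.81, adjusted p = 0.992, same test) and -0.90 for miR-182-5p (standard error 2.63, interval -7.32 to 5.51, adjusted p = 0.992, same test). No change exceeded its standard error, and the sign of miR-183-5p turned with TMM factors (-0.13) and median-of-ratios size factors (-0.02). The intervals of miR-183-5p and miR-182-5p were several times wider than that of miR-96-5p. None of the 3 members had an adjusted or unadjusted p under 0.05 with edgeR, DESeq2 or limma voom, where 2.22% of the tested miRNAs had an adjusted p under 0.05 with edgeR, 7.78% with DESeq2 and 0% with limma voom.

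For miR-182-5p this depended on the replicates of EV shPCBP2. Without replicate 1, only the library with 0 reads is left in that condition and the log2 change was -10.43 (adjusted p = 0.00935, edgeR's quasi-likelihood test), while without replicate 2 it was 0.09 (adjusted p = 0.958, same test). For miR-183-5p the change ranged from -8.05 to 8.54 on leaving out a library, with EV shPCBP2 replicate 2 and EV shCTR replicate 2, the libraries with reads, at the ends. For miR-96-5p it ranged from 0.015 without EV shCTR replicate 1 to 1.34 without EV shCTR replicate 2.

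The ratio can be split into its cell and its EV part. In cells, all members had lower levels relative to the spike-in in both shPCBP2 replicates than in both shCTR replicates, although with TMM factors the fitted change of miR-183-5p was above 0 (0.07). miR-96-5p had 1787 and 1565 spike-in RPM in shCTR and, in shPCBP2, 912 and 1283, which gave a log2 change of -0.61 (standard error 0.47, adjusted p = 0.709, edgeR's quasi-likelihood test). For miR-182-5p the change was -0.54 (standard error 1.86, adjusted p = 0.938, same test), and for miR-183-5p -0.41 (standard error 2.46, adjusted p = 0.944, same test). The values did not overlap for 3 of 3 members, and both shPCBP2 libraries were below both shCTR libraries for 66.7% of the tested miRNAs too. Over all tested miRNAs the median log2 change in cells was -0.49, close to the values of the members. As a share of the mouse miRNA reads, the members were again lower in both shPCBP2 replicates, from 2502 and 2105 to 1840 and 1809 reads per 1000000 mouse miRNA reads for miR-96-5p, from 765 and 704 to 604 and 618 for miR-182-5p and from 316 and 354 to 309 and 302 for miR-183-5p. This held for 52.2% of the tested miRNAs.

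When the 4 cell libraries were fitted alone, the standard errors of miR-182-5p, miR-183-5p and miR-96-5p were 0.29, 0.27 and 0.34, with the same changes and an adjusted p of 0.162, 0.251 and 0.167 (edgeR's quasi-likelihood test). No member passed the threshold there, where 21.7% of the tested miRNAs did. None did with DESeq2 or limma voom either, which called 10% and 8.89% of the tested miRNAs, and the unadjusted p was under 0.05 for miR-96-5p with limma voom. With edgeR over all libraries, 0% of the tested miRNAs had an adjusted p under 0.05 in cells and 25 an unadjusted p under 0.05, none of them a member. Without cell shPCBP2 replicate 1, the library with the low share of mouse reads, the changes were -0.39 for miR-96-5p, -0.29 for miR-182-5p and -0.19 for miR-183-5p. In bulk libraries, less RNA per cell and fewer cells of a type cannot be told apart. For levels relative to the spike-in, neither can be told from less cell RNA per amount of spike-in.

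In EVs, miR-96-5p had 6.77 and 17.0 spike-in RPM in shCTR and 12.7 and 9.80 in shPCBP2, so that the shPCBP2 values fell between those of shCTR. Its log2 change was -0.08 (standard error 0.47, interval -1.22 to 1.06, adjusted p = 0.9501, edgeR's quasi-likelihood test), and it was above 0 with each of the other scalings (0.16 to 0.35). miR-182-5p had 10.1 and 12.7 in shCTR and, in shPCBP2, 8.39 and 0, without overlap, and its log2 change was -1.44 (standard error 1.90, adjusted p = 0.787, same test). The same pattern, both shPCBP2 libraries below both shCTR libraries, was found in 42.2% of the tested miRNAs. Relative to the mouse miRNA total, miR-182-5p had 407 and 598 reads per 1000000 in shCTR but 509 and 0 in shPCBP2. The conditions then overlapped, whereas 18.3% of the tested miRNAs had both shPCBP2 libraries lower on this scale. Without EV shPCBP2 replicate 1 its log2 change was -10.96 (adjusted p = 0.00337, same test). miR-183-5p had 0 and 3.84 in shCTR and, in shPCBP2, 0 and 2.96, and its log2 change was -0.38 (standard error 2.48, adjusted p = 0.958, same test). On leaving out a library it ranged from -8.46 without EV shPCBP2 replicate 2 to 8.12 without EV shCTR replicate 2, again the libraries with reads. None of the 3 members had an adjusted or unadjusted p under 0.05 in EVs with edgeR, DESeq2 or limma voom, against 7.22% of the tested miRNAs with an adjusted p under 0.05 with edgeR, 15% with DESeq2 and 2.22% with limma voom.

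**Figure D4:**
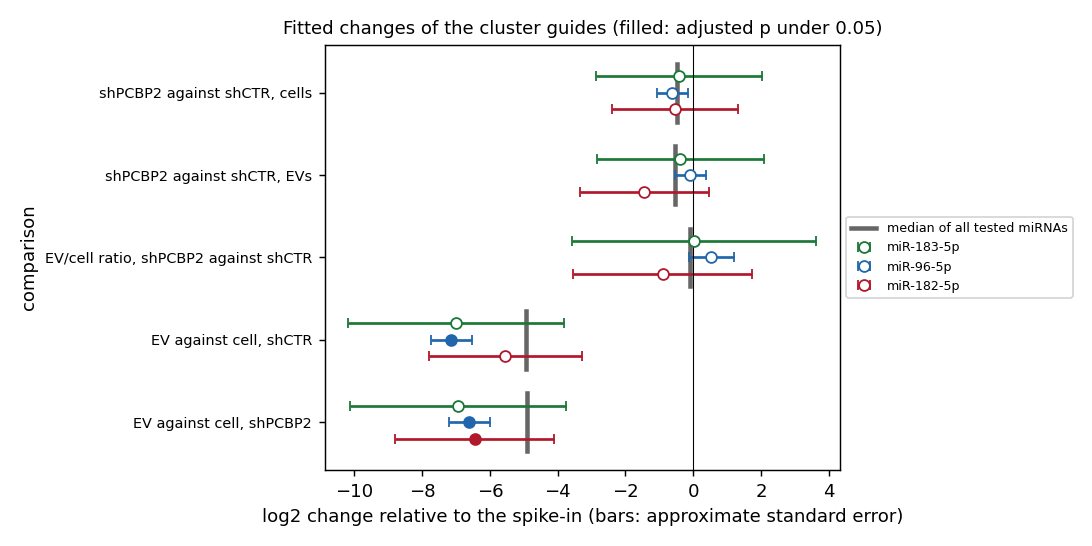
Fitted log2 changes relative to the spike-in (x axis) of the cluster guides in 5 comparisons (y axis), with bars for the approximate standard error, gray ticks for the median of all 180 tested miRNAs and filled points for an adjusted p under 0.05. The shPCBP2 comparisons lie within 1.44 of 0 and include 0 within their errors except for miR-96-5p in cells (-0.61, standard error 0.47), while the EV against cell comparisons lie between -7.14 and -5.55.

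The passenger strands of the cluster, cut from the opposite arms of the hairpins, were read in cells only. miR-96-3p had 646 and 644 counts in cell shCTR and 463 and 853 in cell shPCBP2. miR-182-3p had 473 and 305 counts in cell shCTR and 434 and 420 in cell shPCBP2. miR-183-3p, which holds AUUA from base 5 and is thus the only strand of the cluster with a core CELL motif, had 177 and 57 counts in cell shCTR and 120 and 144 in cell shPCBP2. In no case did the conditions separate by these counts. Passenger strands made up 1.36% to 4.26% of the reads of both arms for miR-183, with overlap between the conditions. For miR-96 they made up 1.99% and 2.55% in cell shCTR and 2.80% and 3.60% in cell shPCBP2. For miR-182 they made up 4.63% and 3.57% in cell shCTR and 7.59% and 5.10% in cell shPCBP2. The shares of miR-96 and miR-182 were thus higher in both shPCBP2 replicates, which was neither tested nor compared with other hairpins.

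In EVs the passenger strands had 0 counts in all 4 libraries, which allows up to 3 counts per library, and they were not among the tested miRNAs. At the arm ratio of the cells, the EV counts of the guides would go with 5.13 to 13.03 counts of miR-96-3p per EV library and, in the libraries with miR-182-5p, with 14.7 to 17.4 counts of miR-182-3p. For miR-183-3p the same calculation gives 3.39 and 3.05 counts, about the floor, so that a passenger strand at the ratio of the cells was not detectable at this depth. For miR-96-3p and miR-182-3p the expected counts lie above the floor. Counts this low were scarce in EVs for other miRNAs too, as given above.

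Among the tested miRNAs, those with the most similar profile over the 8 libraries (smallest root mean square difference of centered log2 levels) differed from member to member. For miR-183-5p they were miR-29a-5p (0.45), miR-532-5p (0.49) and miR-455-3p (1.08), which share its zeros in replicate 1 of both EV conditions. For miR-182-5p they were miR-500-3p (0.51), miR-322-3p (0.54) and miR-149-5p (0.575), which share its zero in EV shPCBP2 replicate 2. For miR-96-5p, which has no zero, they were miR-125b-1-3p (0.37), miR-194-5p (0.41) and miR-324-5p (0.42). No member of the cluster was among the closest of another. miR-96-5p was at 2.98 from miR-183-5p and at 2.83 from miR-182-5p. These differences were taken with 0.5 added to each count, so that the EV zeros weigh heavily in them.

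Other miRNAs known from epithelia, those of the miR-200 family with miR-203-3p and miR-205-5p, were set beside the cluster. In cells, 6 of the 7 listed (miR-200a-3p, miR-200b-3p, miR-200c-3p, miR-141-3p, miR-429-3p, miR-203-3p and miR-205-5p) were read in shCTR and all 7 in shPCBP2. Their summed level was 148 to 192 spike-in RPM per cell library, against 153 to 263 for miR-183-5p, the lowest of the cluster guides. Taken singly they were lower, with at most 1321 counts in a cell library (miR-200a-3p, cell shPCBP2 replicate 2), against 2700 to 4145 for miR-183-5p. In EVs none was read in shCTR, and miR-429-3p alone was read in shPCBP2, with 256 counts in replicate 1, so that none was tested. The cluster guides had reads in at least 2 EV libraries each, but at cell levels above that of any listed miRNA.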

How the data were processed

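Small RNA was sequenced from 3A cells and their EVs, after addition of the cel-miR-39 spike-in. The authors removed adapters and low-quality reads, aligned the forward reads with mirPRo to miRBase hairpins plus the spike-in, and deposited raw counts per mature miRNA; counts above 999999 are printed to 6 significant digits. Samples were grouped by shRNA and compartment from their titles, whose replicate numbers differ from those of the descriptions for some shPCBP2 libraries.

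The deposited counts of all 8 libraries were fitted in a single model with edgeR 4.0.16 (quasi-likelihood test, library size equal to the spike-in count) in R 4.3.3, over the 180 miRNAs that had a read in 2 or more libraries of each compartment. P-values were adjusted by Benjamini-Hochberg over all of them. Standard errors were derived from the test statistic and are approximate. The fit was tested on simulated data, where it called part of the changes of the EV/cell ratio at a low spread. It called none of them at a spread near the common dispersion of the fit (0.693), given to every miRNA. The members did not share a spread, with standard errors of the ratio change from 0.66 to 3.60. The simulation thus does not tell how readily a change of a single member is called, and a missing call says little. Alternatives were DESeq2 1.42.0, limma voom 3.58.1, other scalings and filters, a replicate block and the omission of each library. The members, the lists and the tests were chosen with earlier results of these data known. Named miRNAs are the members, their passenger arms, the marker lists and the 3 tested miRNAs closest to each member in profile. With 2 replicates per group, an exact permutation test cannot go below p = 0.333, so none was used.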

Additional observations from a re-analysis of the deposited data

How the results depend on the processing

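Of the alternatives to the reported values, 205 kept the result, 12 lost the call, 17 gained it and 17 changed sign. For the tested changes, this meant keeping direction and side of the threshold. The 205 also include the ratios between members and the medians at like cell level, which have no threshold. The log2 EV/cell change of miR-182-5p in shCTR passed the threshold with DESeq2 (-5.55), limma voom (-5.57) and only the 4 libraries compared (-5.55). That of miR-183-5p passed with DESeq2 and limma voom in shCTR (-6.99 and -9.85) and in shPCBP2 (-6.96 and -9.83). In shPCBP2, miR-182-5p lost its call with the total mouse miRNA count (-1.26), median-of-ratios (-1.78) and TMM factors (-1.98) and only the 4 libraries compared (-6.46), and miR-96-5p with the total mouse miRNA count (-1.42). The sign turned for the EV/cell ratio change of miR-183-5p (TMM -0.13, median-of-ratios -0.020), for miR-183-5p in cells (TMM 0.069) and for miR-96-5p between EV conditions (TMM 0.16, median-of-ratios 0.23, total count 0.35, limma voom 0.11). Sizes also differed where call and sign were kept. For miR-182-5p, limma voom gave a ratio change of -4.33 (-0.90 with edgeR) and a change between EV conditions of -4.89 (-1.44 with edgeR). Its EV/cell change in shPCBP2 was -9.90 with limma voom (-6.46 with edgeR). Apart from the scalings, whose arithmetic shifts all miRNAs, the cause was not tested. In shCTR, the median log2 EV/cell change over the tested miRNAs was -4.93 for spike-in scaling and -0.17, -0.15 and 0.06 with TMM, median-of-ratios and total count, while miR-96-5p stood 2.15 to 2.21 below it with each.

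On leaving out each library in turn, the ratio change ranged from -10.43 to 0.095 for miR-182-5p, -8.05 to 8.54 for miR-183-5p and 0.015 to 1.34 for miR-96-5p. The EV/cell change in shCTR ranged from -5.73 to -5.39, -15.49 to -5.99 and -7.95 to -6.62, and in shPCBP2 from -15.98 to -5.46, -15.04 to -5.95 and -6.83 to -6.34, in the same order. The shPCBP2 change ranged from -0.84 to -0.29, -0.68 to -0.19 and -0.88 to -0.39 in cells, and from -10.96 to -0.44, -8.46 to 8.12 and -0.60 to 0.73 in EVs. Where a group is left with 1 library, it is assumed to vary like the others. With a filter of 10 or more counts in every library, only miR-96-5p was left to test.

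The samples were not treated as paired by replicate number. With the numbers of the titles, the correlation of replicate deviations between groups was -0.51 to 0.04, and no label ties a number to a batch. The descriptions number some shPCBP2 libraries differently, and a pairing by other numbers was not tested. With the number as a replicate block, miR-182-5p in shPCBP2 lost its EV/cell call (-6.92), the change of miR-96-5p between EV conditions turned sign (0.0066), and 1 tested miRNA in place of 4 passed for the ratio and 2 in place of 13 between EV conditions.

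An EV library held 0 to 331 reads of miR-182-5p or miR-183-5p, and the cause of the zeros was not tested.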
